A study of Mus musculus with 9 samples.

Results

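Glycolysis was followed here through 10 genes, one for glucose uptake and 9 for enzymes of the pathway from glucose to lactate: *Slc2a1*, *Hk2*, *Pfkp*, *Aldoa*, *Tpi1*, *Gapdh*, *Pgk1*, *Eno1*, *Pkm* and *Ldha*. They were taken by gene name from the table of normalized read counts, which holds 15184 genes, and all 10 were listed. The names follow the steps of the pathway, and they were chosen with earlier results of these data known.

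PolyA+ RNA of mouse embryonic fibroblasts (MEFs), primary connective tissue cells grown from wild-type mid-gestation embryos, was measured by RNA-Seq in 9 libraries. CRISPR/SAM is an activation system in which a catalytically dead Cas9 carries activator proteins to a promoter chosen by a guide RNA. Per the study's methods, cells were transduced with lentiMPHv2 and lentiSAMv2 particles, the control plasmid being lentiSAMv2 with a nontargeting guide, and were selected with blasticidin and hygromycin, with no further treatment. The groups were 3 libraries labelled Empty (genotype Empty vector, the control), 3 labelled SAM1 and 3 labelled SAM2 (both of genotype Hnrnpk_SAM, in which guides directed to *Hnrnpk* were used singly). The labels do not say which guide SAM1 and SAM2 carry, nor whether the libraries of a line are separate cultures, so p-values measure the spread between these libraries, which may be technical. Each line is therefore described by its label.

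The reads recovered on the listed genes were between 41759636 and 49026626 in the 8 libraries in which they could be recovered, and libraries of a group correlated across genes at r = 0.995 to 0.997. The target of the activation, *Hnrnpk*, was not higher in the libraries labelled SAM1, where its log2 fold change against empty vector was -0.11 (limma adjusted p = 0.00252), and in those labelled SAM2 the value was 0.044 (limma adjusted p = 0.159). Over both lines it was -0.032, and it turned with quantile normalization (0.16, limma adjusted p = 0.0199), relative to the reference genes (0.080) and scaled to the library sum (0.091). The study also measured *Hnrnpk* by qRT-PCR and its protein by Western blot, which were not analysed here. All 8 fibroblast markers were listed, with summed normalized counts of 626994 to 673097 in the empty vector libraries, 543757 to 546659 in SAM1 and 698069 to 718469 in SAM2. Within that sum, means of *Pdgfrb* went from 6569 to 12577 and 9513, and those of *Pdgfra* from 9710 to 6403 and 5534. Some markers of other cell types moved with the groups. The 4 endothelial markers summed to 301 to 357 in empty vector, 4613 to 4988 in SAM1 and 638 to 689 in SAM2, with *Kdr* means of 211, 4693 and 536. *Pecam1* lay between 10.5 and 15.3 in empty vector, 25.4 and 32.6 in SAM1, where it was called higher (limma adjusted p = 0.000907), and 9.28 and 14.8 in SAM2. The other endothelial markers did not rise in SAM1. *Cdh5* had means of 77.6, 64.7 and 51.2 and was called lower in SAM2 only (limma adjusted p = 0.0083). *Tek* had means of 35.6, 29.0 and 67.1 and was called higher in SAM2 only (limma adjusted p = 0.000894). The 2 of 4 listed muscle markers (*Acta1* and *Des*) summed to 88.8 to 127 in empty vector, 338 to 365 in SAM1 and 412 to 457 in SAM2. The 2 of 4 listed epithelial markers (*Cdh1* and *Krt8*) summed to 42.1 to 50.1, 110 to 113 and 42.7 to 52.4 in the same order. Of the leukocyte markers 1 of 4 was listed (*Cd68*, 315 to 416, 512 to 541 and 543 to 583), and the 2 of 4 listed neural markers summed to 1121 to 1374, 1271 to 1290 and 1099 to 1158. In that sum *Tubb3* rose 2.96-fold in SAM1 and 2.12-fold in SAM2, and *Map2* fell to 0.481 and 0.566 of empty vector (limma). Their part in the results on glycolysis was not tested.

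Glycolysis splits glucose into pyruvate in the cytosol and yields ATP without oxygen. Glucose enters through facilitative transporters, is trapped by hexokinase and committed by phosphofructokinase, is cleaved by aldolase, and is then oxidized at the step of glyceraldehyde-3-phosphate dehydrogenase, the product of *Gapdh*. Phosphoglycerate kinase, enolase and pyruvate kinase follow, and lactate dehydrogenase turns pyruvate into lactate. Most steps have several isozymes from separate genes, and many of the genes are known targets of hypoxia-inducible factors and of MYC. Because such genes are abundant, *Gapdh* is widely used as a reference in qRT-PCR, and the study's own qRT-PCR used *Gapdh* and/or *Actb* in that way.

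The promoters of 4 members are shown because these genes include the largest rise (*Pfkp*), the member with the largest difference between the lines (*Hk2*), the reference gene (*Gapdh*) and the member with the largest fall in SAM2 (*Ldha*). They are RefSeq promoter sequences of the GRCm38.p6 table that were found unchanged in GRCm39, read up to the base before transcription starts, 5′ to 3′ on the strand of the gene. Capitals mark ACGTG on either strand (CACGT is the same motif on the other strand), the core of the hypoxia response element, and every CACGTG, the E-box bound by MYC family factors, holds it on both strands.
*Pfkp*, 87 bases, chr13:6698971-6699057, minus strand: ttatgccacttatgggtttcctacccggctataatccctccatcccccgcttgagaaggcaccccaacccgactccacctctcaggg
*Hk2*, 233 bases, chr6:82751453-82751685, minus strand: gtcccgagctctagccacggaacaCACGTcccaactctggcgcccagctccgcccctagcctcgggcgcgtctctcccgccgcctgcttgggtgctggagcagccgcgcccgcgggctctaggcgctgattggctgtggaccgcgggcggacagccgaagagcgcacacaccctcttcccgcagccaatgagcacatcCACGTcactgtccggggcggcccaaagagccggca
*Gapdh*, 250 bases, chr6:125142737-125142986, minus strand: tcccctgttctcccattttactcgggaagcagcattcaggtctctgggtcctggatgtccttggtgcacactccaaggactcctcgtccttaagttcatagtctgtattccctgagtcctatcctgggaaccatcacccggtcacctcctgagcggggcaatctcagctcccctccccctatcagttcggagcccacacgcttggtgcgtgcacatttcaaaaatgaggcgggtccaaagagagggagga
*Ldha*, 250 bases, chr7:46494978-46495227, plus strand: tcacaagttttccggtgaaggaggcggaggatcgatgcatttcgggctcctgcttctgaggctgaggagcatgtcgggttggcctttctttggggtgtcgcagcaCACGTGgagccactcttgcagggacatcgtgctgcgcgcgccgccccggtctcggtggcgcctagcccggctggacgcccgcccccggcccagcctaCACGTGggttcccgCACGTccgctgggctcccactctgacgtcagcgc

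In windows from 250 bases before to 50 bases after the start, ACGTG occurred in 19.6% of 32851 RefSeq promoters and CACGTG in 7.15%. Among the members, *Ldha* had 5 matches to ACGTG, *Hk2* and *Pgk1* had 2 each, and *Slc2a1*, *Aldoa* and *Gapdh* had 1 each, that of *Gapdh* lying in the 50 bases after the start and so outside the sequence shown. *Pfkp*, *Tpi1*, *Eno1* and *Pkm* had none in this window. *Pkm* has 2 RefSeq promoters, and ACGTG occurs in the one that was not used here. CACGTG occurred 2 times in the *Ldha* window and in no window of another member. A match here is a description of letters, and members with and without matches were found among those that rose and those that fell, as given below.

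When both lines were compared at once with empty vector, 3 of the 10 members rose (*Pfkp*, *Gapdh* and *Tpi1*), 2 fell (*Slc2a1* and *Pkm*) and 5 passed no threshold (limma on log2 of the normalized count plus 1, Benjamini-Hochberg adjusted p below 0.05 over all genes). This fit, here and below, takes the 6 libraries labelled Hnrnpk_SAM as separate samples, although they come from 2 lines that differ. Of all 15184 genes, 26.8% were called higher and 27.0% lower in this comparison, so that the members were called about as often as other genes. The members had a median log2 fold change of 0.030, against 0.0087 for all genes.

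Each line was then compared with empty vector by itself. In SAM1, 5 members rose and 4 fell, against 37.3% of all genes called higher and 36.9% called lower. In SAM2, 4 members rose and 6 fell, against 35.2% and 35.3% of all genes. The median over the members was 0.074 in SAM1 (all genes 0.0093) and -0.16 in SAM2 (all genes -0.0015). *Pfkp*, *Gapdh* and *Tpi1* rose and *Slc2a1*, *Pkm* and *Ldha* fell in both lines, whereas *Hk2*, *Pgk1* and *Eno1* moved one way in one line and the other way in the other. Both comparisons use the same 3 empty vector libraries. The lines themselves differed at all 10 members, with 1 member (*Hk2*) higher in SAM2 than in SAM1 and 9 lower, where 31.1% of all genes were called higher and 29.2% lower, and the median over the members was -0.31 against -0.0075 for all genes.

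**Figure D1:**
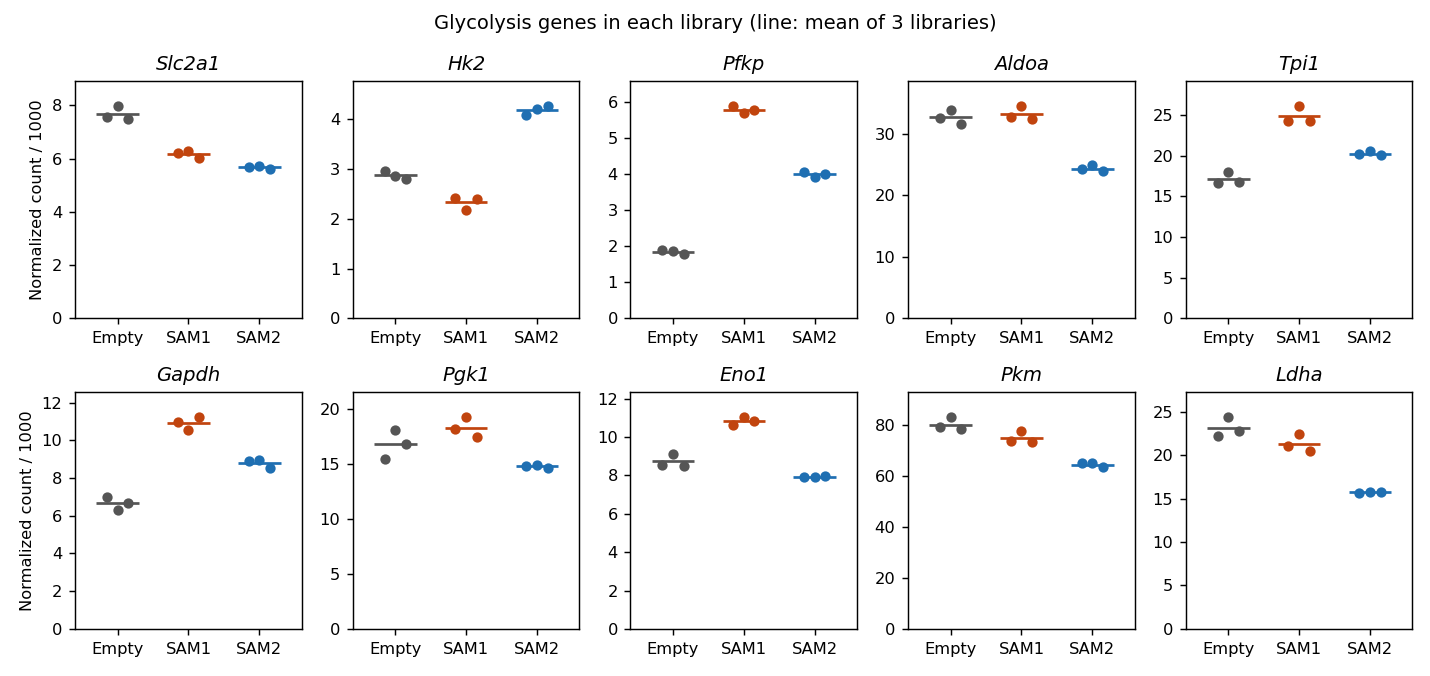
Normalized read counts (in units of 1000, linear axis from 0) of the 10 members in each library. Points are the 3 libraries of Empty (grey), SAM1 (orange) and SAM2 (blue), and lines are their means. Pfkp and Gapdh lie above empty vector in all libraries of both lines, and Slc2a1 lies below it.

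**Figure D2:**
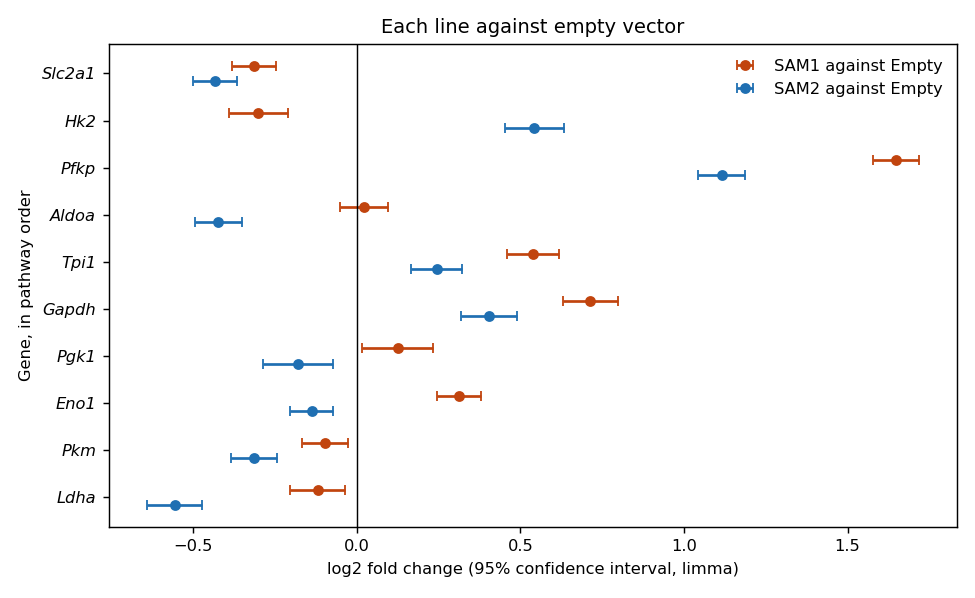
Log2 fold change of each member in SAM1 (orange) and SAM2 (blue) against empty vector, with 95% confidence intervals from limma, in pathway order from top to bottom. Hk2 is at -0.30 in SAM1 and 0.54 in SAM2, while Pfkp is at 1.65 and 1.11.

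The choice of scaling matters for members with small changes. Scaling to the library sum or to 16 other reference genes moved the median of all genes in the comparison of both lines from 0.0087 to 0.13 and 0.12, and the share of higher among called genes from 49.8% to 65.3% and 63.9%. Expressing values relative to *Gapdh* moved the median to -0.55 and that share to 12.5%. The changes below are given on the deposited scale. Where another scaling turns a direction of a member, this is said here or in the closing section. For listed isozymes, the genes named from each list by smallest adjusted p, and *Hnrnpk*, this covers the value over both lines only. No other log2 fold change of a single gene was compared between scalings, and small ones could turn.

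*Slc2a1* encodes GLUT1, the main glucose transporter of fibroblasts, and lies on chromosome 4 of GRCm39 (118965908 to 118996365, plus strand). It stood at 7546, 7960 and 7482 normalized counts in empty vector, 6202, 6271 and 6014 in SAM1, and 5680, 5717 and 5616 in SAM2. Every library of both lines lay below every empty vector library. *Slc2a1* fell to 0.804 of the empty vector level in SAM1 (log2 fold change -0.31, standard error 0.031, limma adjusted p = 7.71e-07) and to 0.74 in SAM2 (-0.43, standard error 0.031, limma adjusted p = 3.83e-08). Its fall in both lines held under each of the 20 other settings tried. In bulk RNA, fewer cells with a transcript and less of it per cell cannot be told apart, here and for the other members.

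*Hk2* encodes hexokinase 2, an inducible hexokinase that can bind mitochondria and phosphorylates glucose, and lies on chromosome 6 (82699740 to 82751469, minus strand). The counts were 2954, 2860 and 2805 in empty vector, 2416, 2183 and 2405 in SAM1, and 4086, 4207 and 4261 in SAM2. The empty vector libraries lay between those of the lines, with no overlap. *Hk2* fell in SAM1 (log2 fold change -0.30, standard error 0.041, limma adjusted p = 1.99e-05) and rose in SAM2 (0.54, standard error 0.041, limma adjusted p = 7.30e-08). Over both lines these cancelled to 0.12 (limma adjusted p = 0.696), a value that lay between 0.031 (without SAM2 replicate 3) and 0.22 (without SAM1 replicate 2) when 1 library was left out. The difference between SAM2 and SAM1 was 0.84 (limma adjusted p = 2.08e-09), or 1.79-fold.

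*Pfkp*, the platelet type of phosphofructokinase, which catalyses the committed step, is on chromosome 13 (6629798 to 6698970, minus strand) and had the largest change of the 10. It stood at 1901, 1854 and 1779 normalized counts in empty vector, 5868, 5696 and 5771 in SAM1, and 4061, 3919 and 4005 in SAM2. The lowest library of either line had more than double the highest empty vector library. *Pfkp* rose 3.13-fold in SAM1 (log2 fold change 1.65, standard error 0.033, limma adjusted p = 1.01e-13) and 2.17-fold in SAM2 (1.11, standard error 0.033, limma adjusted p = 6.60e-12). SAM2 lay below SAM1 by a log2 difference of -0.53 (limma adjusted p = 1.71e-08).

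*Aldoa* encodes aldolase A, which splits fructose-1,6-bisphosphate, and lies on chromosome 7 (126393822 to 126399923, minus strand). Counts of 32574, 33897 and 31562 in empty vector stood beside 32724, 34467 and 32384 in SAM1 and 24282, 24855 and 23962 in SAM2. SAM1 overlapped empty vector, and SAM2 lay below both. *Aldoa* fell to 0.746 of empty vector in SAM2 (log2 fold change -0.42, standard error 0.033, limma adjusted p = 1.05e-07). In SAM1 the value was 0.023 (95% confidence interval -0.050 to 0.095, limma adjusted p = 0.556), but it passed the threshold as a rise with quantile normalization (0.18), relative to the reference genes (0.13) and scaled to the library sum (0.16).

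*Tpi1* encodes triosephosphate isomerase, which interconverts the products of aldolase, and lies on chromosome 6 (124787549 to 124791273, minus strand). It measured 16666, 17926 and 16713 in empty vector, 24270, 26037 and 24222 in SAM1, and 20141, 20560 and 20038 in SAM2. Each line lay above empty vector without overlap, and SAM1 above SAM2. *Tpi1* rose 1.45-fold in SAM1 (log2 fold change 0.54, standard error 0.036, limma adjusted p = 1.54e-08) and 1.18-fold in SAM2 (0.24, standard error 0.036, limma adjusted p = 4.32e-05). Relative to *Gapdh*, which rose more, the direction turned in both lines (-0.18 and -0.16).

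*Gapdh* lies on chromosome 6 (125135289 to 125143518, minus strand), in the same region as *Tpi1*. The 3 empty vector libraries gave 7007, 6300 and 6664 normalized counts, against 10968, 10549 and 11233 in SAM1, and 8912, 8950 and 8551 in SAM2. The groups did not overlap, with SAM1 highest and empty vector lowest. *Gapdh* rose 1.64-fold in SAM1 (log2 fold change 0.71, standard error 0.039, limma adjusted p = 1.98e-09) and 1.32-fold in SAM2 (0.40, standard error 0.039, limma adjusted p = 7.88e-07). Over both lines the log2 fold change was 0.56 (limma adjusted p = 0.00094), and SAM2 lay below SAM1 by -0.31 (limma adjusted p = 1.74e-05). In the settings tried other than the scaling to *Gapdh* itself, which gives it no value, the log2 fold change lay between 0.68 and 0.86 in SAM1 and between 0.37 and 0.52 in SAM2, always past the threshold.

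*Pgk1* encodes phosphoglycerate kinase 1, the first enzyme of the pathway to make ATP, and lies on chromosome X (105230706 to 105247305, plus strand). It measured 15442, 18067 and 16772 in empty vector, 18118, 19236 and 17400 in SAM1, and 14801, 14912 and 14575 in SAM2. SAM1 overlapped empty vector and SAM2 lay below it. The log2 fold change was 0.12 in SAM1 (limma adjusted p = 0.0367) and -0.18 in SAM2 (limma adjusted p = 0.00554). The call in SAM1 was lost without Empty replicate 1 (0.067) or 3, without SAM1 replicate 1 or 2 (0.086), without any 1 of the SAM2 libraries, and with edgeR, DESeq2 or limma without a trend. The call in SAM2 was lost with quantile normalization (-0.088), relative to the reference genes (-0.068) and scaled to the library sum (-0.077).

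*Eno1* encodes alpha-enolase, which forms phosphoenolpyruvate, and lies on chromosome 4 (150321073 to 150337027, plus strand). The counts were 8563, 9108 and 8505 in empty vector, 10642, 11031 and 10833 in SAM1, and 7899, 7918 and 7965 in SAM2. All SAM1 libraries lay above and all SAM2 libraries below empty vector. *Eno1* rose 1.24-fold in SAM1 (log2 fold change 0.31, standard error 0.031, limma adjusted p = 7.31e-07) and fell to 0.909 in SAM2 (-0.14, standard error 0.031, limma adjusted p = 0.0013). The fall in SAM2 no longer passed with quantile normalization (-0.054), relative to the reference genes (-0.025) or scaled to the library sum (-0.034), and the rise in SAM1 turned to -0.40 relative to *Gapdh*.

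*Pkm* encodes the muscle-type pyruvate kinases, which the counts per gene do not separate into PKM1 and PKM2, and lies on chromosome 9 (59563364 to 59586663, plus strand). It had the highest counts of the members, at 79030, 83080 and 78313 in empty vector, 73774, 77735 and 73252 in SAM1, and 64998, 65039 and 63386 in SAM2. The groups were separate, in falling order. On the deposited scale *Pkm* fell by a little in SAM1 (log2 fold change -0.097, standard error 0.032, limma adjusted p = 0.0157) and to 0.805 of empty vector in SAM2 (-0.31, standard error 0.032, limma adjusted p = 1.47e-06). With quantile normalization the direction turned in both lines, to 0.26 in SAM1 (limma adjusted p = 2.11e-06) and 0.14 in SAM2 (limma adjusted p = 0.000706), and scaling to the library sum or the reference genes moved SAM1 to 0.045 and 0.014. The call in SAM1 was also lost without Empty replicate 2 (-0.071) or without SAM1 replicate 1 or 3, and that over both lines (-0.21, limma adjusted p = 0.0409) without any 1 of the Empty or SAM2 libraries.

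*Ldha* encodes lactate dehydrogenase A, which makes lactate and restores NAD+, and lies on chromosome 7 (46490899 to 46505061, plus strand). Counts of 22250, 24381 and 22775 in empty vector stood against 21061, 22400 and 20445 in SAM1 and 15697, 15758 and 15712 in SAM2. SAM1 overlapped empty vector, and SAM2 lay far below both. *Ldha* fell to 0.68 of the empty vector level in SAM2 (log2 fold change -0.56, standard error 0.039, limma adjusted p = 2.87e-08), which was the largest fall of a member in either line. The fall in SAM1 was small (-0.12, limma adjusted p = 0.0135). It was lost without Empty replicate 2 (-0.081) or SAM1 replicate 3 (-0.090) and relative to the reference genes (-0.0075), and it turned to 0.088 with quantile normalization and 0.023 scaled to the library sum. Over both lines *Ldha* missed the threshold (-0.34, limma adjusted p = 0.0525) and passed it when any 1 of the SAM1 libraries was left out.

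Levels were compared between genes per kilobase (kb) of canonical transcript. In empty vector the order was *Pkm* (32737 ± 1050 normalized counts per kb, SD, n = 3), *Aldoa* (21626), *Ldha* (14569), *Tpi1* (10642), *Pgk1* (9184), *Gapdh* (4688), *Eno1* (3805), *Slc2a1* (1724), *Pfkp* (428) and *Hk2* (369 ± 9.70, SD, n = 3). No neighbours in this order overlapped between libraries. In SAM1 and SAM2 *Tpi1* stood above *Ldha*, at 15459 ± 644 against 13414 ± 630 in SAM1 and 12599 ± 172 against 9901 ± 20.3 in SAM2 (SD, n = 3). In SAM1 *Pfkp* (1341) reached the range of *Slc2a1* (1386), the only overlap of neighbours in any group. *Gapdh* was thus sixth in each group, behind 5 other enzymes of the pathway. These levels rest on the reads that the counting kept.

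Members differed in how much of their transcript has copies elsewhere in the genome. Of all stretches of 43 bases (the read length) in the canonical transcript, 93.3% of those of *Pgk1* and 85.7% of those of *Gapdh* were also found elsewhere in GRCm39, in the case of *Gapdh* with 50 or more such stretches in each of 141 separate blocks of 10 kb. The share was 65.3% for *Eno1*, 47.5% for *Pkm*, 43.2% for *Ldha*, 28.2% for *Tpi1* and 21.6% for *Aldoa*, and it was 0 for *Slc2a1* and *Pfkp* and 0.0129% for *Hk2*. The 10 copies (pseudogenes and retrogenes) that were looked for by name were not listed in the table. Per the study's methods, the alignment allowed reads with several positions. How the counting then treated them is not given in the sources used here, and its part in the level of *Gapdh* and *Pgk1* was not tested. *Gapdh* also overlaps *Iffo1*, *Pfkp* overlaps *Pitrm1*, *Tpi1* overlaps *Spsb2* and *Aldoa* overlaps *Tlcd3b* on the opposite strand, and, although the library kit (NEBNext Ultra II Directional) keeps the strand, whether the counting used it is not given.

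The same steps were followed through other isozymes and the steps that the 10 genes leave out. Of 25 such genes 15 were listed, of which 8 rose and 2 fell over both lines, where 26.8% of all genes were higher and 27.0% lower, with a median log2 fold change of 0.45 against 0.0087 for all genes. These calls include *Hkdc1*, *Aldoc* and *Pgam2*, which were listed only through libraries where they were high. Their directions thus followed from the filter on counts, and the counts of calls and the median include them. In SAM1, 10 rose and 3 fell (37.3% and 36.9% of all genes), and in SAM2, 8 rose and 3 fell (35.2% and 35.3%). The rises covered a second hexokinase, the muscle phosphofructokinase and both other enolases. *Hk1*, the housekeeping hexokinase, rose in SAM1 (0.62, limma adjusted p = 2.05e-10) and in SAM2 (0.27, limma adjusted p = 1.17e-06). *Pfkm* rose by 0.52 and 0.46, while *Pfkl*, the liver type, rose in SAM1 (0.21, limma adjusted p = 0.000166) and stood at -0.039 in SAM2 (limma adjusted p = 0.358). *Eno3*, the muscle enolase, went from 1506 ± 77.6 to 3731 ± 166 in SAM1 and 3988 ± 90.4 in SAM2 (normalized counts, SD, n = 3), log2 fold changes of 1.31 and 1.41. *Eno2*, the neuronal enolase, rose by 0.26 and 0.73.

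Among the transporters, *Slc2a3* (GLUT3) rose from 97.0 to 335 and 254 normalized counts, and *Slc2a6* (GLUT6) fell from 1132 to 376 and 587 (log2 fold changes -1.59 and -0.95). *Bpgm*, which makes 2,3-bisphosphoglycerate, rose by 0.59 and 0.68. *Pgam2*, the muscle phosphoglycerate mutase, fell, with 18.7 counts in empty vector against 3.56 and 4.78, while *Pgam1*, which carries nearly all of that step, stood at 0.051 in SAM1 (limma adjusted p = 0.211) and -0.19 in SAM2 (limma adjusted p = 0.000334). *Gpi1*, the isomerase between hexokinase and phosphofructokinase, rose by 0.14 in SAM1 and stood at 0.025 in SAM2. *Adpgk*, an ADP-dependent glucokinase, fell in SAM1 (-0.62) and stood at -0.058 in SAM2 (limma adjusted p = 0.0923). *Hkdc1* and *Aldoc* were listed with means under 20 in every group, with log2 fold changes over both lines of 1.77 (limma adjusted p = 0.00427) and 1.30 (limma adjusted p = 0.0298), and the *Aldoc* libraries overlapped. Both passed the filter only through libraries labelled Hnrnpk_SAM, so a rise was favoured in advance and nothing is concluded from these p-values. The call of *Aldoc* over both lines was lost without Empty replicate 2 or 3, without any 1 of the SAM2 libraries, with quantile normalization, relative to *Gapdh*, with a replicate block, and with edgeR or DESeq2 (adjusted p between 0.0511 and 0.421). *Ldhb* rose by 0.24 in SAM1 and stood at 0.083 in SAM2 (limma adjusted p = 0.275).

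The share of each isozyme in its step was computed per kb and is given as a description. Isozymes differ in how many of their 43-base stretches are also found elsewhere in the genome. This was 65.3% for *Eno1*, 1.2% for *Eno2* and 0 for *Eno3*, 43.2% for *Ldha* and 34.2% for *Ldhb*, and 94.4% for *Pgam1*. Its part in the shares was not tested. *Pfkp* made up 14.9% ± 0.715 of phosphofructokinase transcript in empty vector, 30.6% ± 0.772 in SAM1 and 25.6% ± 0.415 in SAM2 (SD, n = 3), while the sum of the 3 genes went from 2868 to 4382 and 3617 normalized counts per kb. *Hk2* made up 19.5% of hexokinase transcript in empty vector, 11.3% in SAM1 and 22.6% in SAM2, and the summed hexokinases were higher in both lines (2650 and 2377 against 1891). *Eno1* went from 73.4% of enolase transcript to 63.2% and 52.4%, and *Eno3* from 16.7% to 28.6% and 34.7%. *Slc2a1* was 75.7% of the 3 listed glucose transporters in empty vector, 84.2% in SAM1 and 79.0% in SAM2, of a sum that went from 2278 to 1647 and 1615. *Ldha* stayed at 94.4% to 96.3% of lactate dehydrogenase, whose sum went from 15123 to 14070 and 10488. So the transporter and lactate dehydrogenase sums were lower and the hexokinase, phosphofructokinase and enolase sums higher in every library of both lines than in empty vector, except that the lactate dehydrogenase sum of SAM1 overlapped it.

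**Figure D3:**
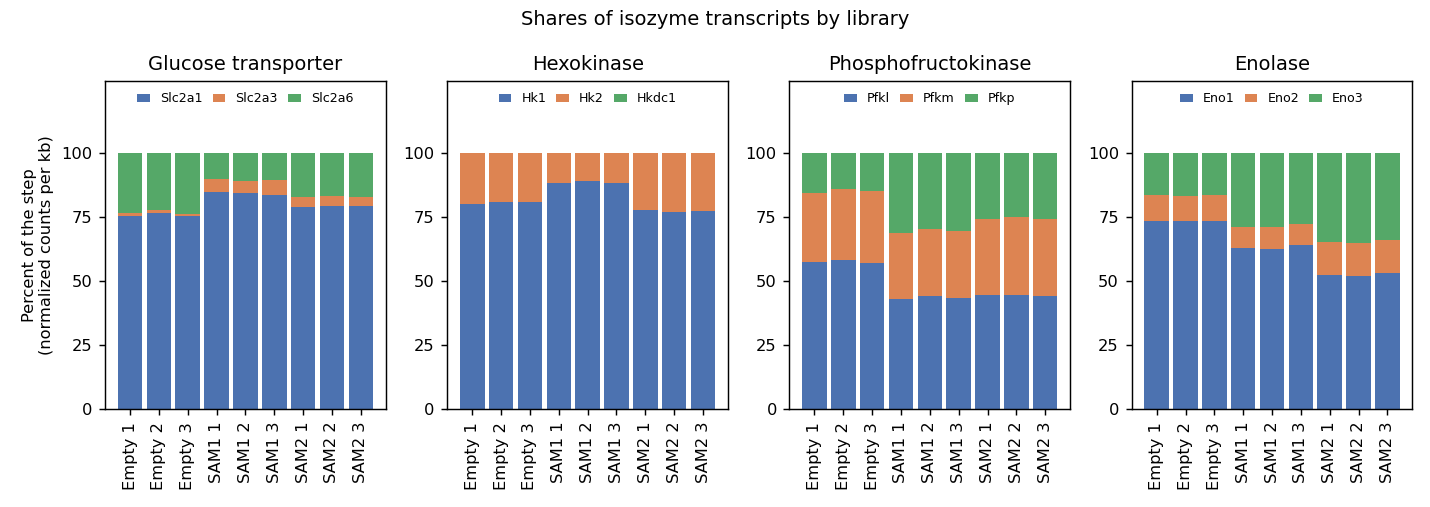
Share of each isozyme gene in its step, in percent of normalized counts per kb of canonical transcript, for each library. Genes differ in how much of their transcript has copies elsewhere in the genome, and the part of this in the shares was not tested. The Pfkp segment rises from 14.9% in empty vector to 30.6% in SAM1 and 25.6% in SAM2, and the Eno3 segment from 16.7% to 28.6% and 34.7% (means of 3 libraries).

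Genes around the pathway were read from lists, whose counts stand beside 26.8% of all genes higher and 27.0% lower over both lines, 37.3% and 36.9% in SAM1, and 35.2% and 35.3% in SAM2. Fructose-2,6-bisphosphate, the strongest activator of phosphofructokinase, is made by the PFKFB enzymes. Of this list of 5, 3 rose and 0 fell over both lines, and in each line 3 rose and 1 fell. *Pfkfb4* rose from 616 to 2222 in SAM1 and 1237 in SAM2 (log2 fold changes 1.85 and 1.01), *Pfkfb3* from 641 to 1302 and 931 (1.02 and 0.54), and *Pfkfb1* by 0.48 and 0.26, its call over both lines being lost with quantile normalization (0.18, limma adjusted p = 0.0809). *Tigar*, a phosphatase that lowers fructose-2,6-bisphosphate, fell in SAM1 (-0.47) and stood at -0.054 in SAM2, whereas *Pfkfb2* fell in SAM2 (-0.21, limma adjusted p = 0.00848) and stood at 0.085 in SAM1. Of the 5 lactate transport genes 3 rose and 2 fell in each line. *Slc16a3* (MCT4, the lactate exporter of glycolytic cells) rose by 0.69 and 0.41, and *Slc16a1* (MCT1) fell by 0.26 and 0.15, a call lost over both lines relative to the reference genes (-0.092) and scaled to the library sum (-0.081). *Emb* (embigin), a chaperone of monocarboxylate carriers, rose from 1289 to 6628 and 2763.

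The counts of the next 3 lists are over both lines, where 26.8% of all genes were higher and 27.0% lower. Pyruvate entry into mitochondria had 15 genes listed, with 3 higher and 6 lower. *Pdp1*, a phosphatase that activates pyruvate dehydrogenase, fell by 0.89 in SAM1 and 0.93 in SAM2, and *Pdp2* rose by 0.40 and 0.33, as did *Pdhx*, a structural part of the complex, by 0.52 and 0.43. Of 9 pentose phosphate genes 2 rose and 3 fell. *G6pdx*, the entry enzyme of that pathway, rose by 0.44 and 0.54, and *Taldo1* and *Rpe* of its non-oxidative arm fell (-0.47 and -0.33 for *Taldo1*, -0.46 and -0.25 for *Rpe*). Of 13 hexosamine and glycogen genes 8 rose and 1 fell, led by *Pygl*, the liver glycogen phosphorylase, which went from 14.2 to 285 in SAM1 and 171 in SAM2. *Gfpt2*, which draws fructose-6-phosphate into hexosamines, rose by 1.07 and 1.53, and *Pgm1* by 0.72 and 0.50.

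Of the 5 genes of the serine branch, 1 rose and 4 fell in SAM1 (37.3% and 36.9% of all genes), whereas 3 rose and 2 fell in SAM2 (35.2% and 35.3%). Higher in SAM2 than in SAM1 were 4 of 5 (31.1% of all genes). *Shmt1* rose in both lines (0.54 and 0.62). Of the 6 gluconeogenesis genes 2 were listed, and *G6pc3* fell by 0.27 and 0.21, a call lost over both lines when scaled to the library sum (-0.11).

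**Figure D4:**
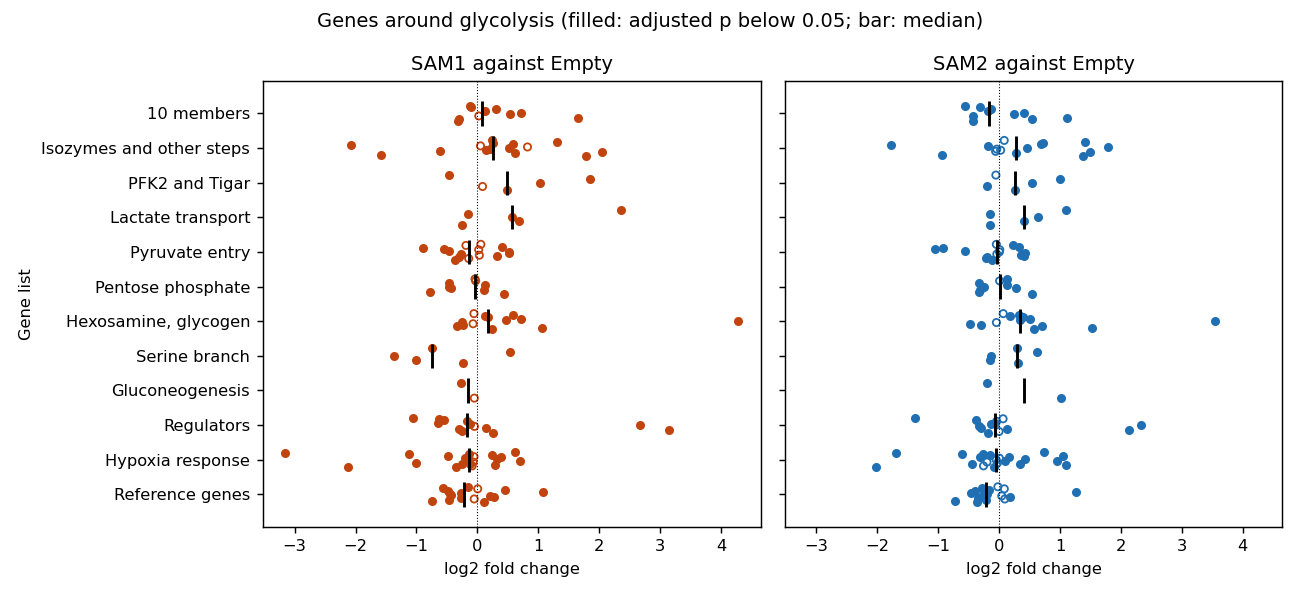
Log2 fold changes against empty vector of the listed genes of each gene list, in SAM1 (left) and SAM2 (right). Filled points passed limma's adjusted p of 0.05, open points did not, and the black bar is the median of the list, which for the 10 members is at 0.074 in SAM1 and -0.16 in SAM2.

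Regulators of the pathway were examined next. *Hif1a*, the oxygen-regulated factor behind much of the glycolytic response, rose in SAM1 (0.26, limma adjusted p = 6.75e-06) and fell in SAM2 (-0.18, limma adjusted p = 0.00024). *Epas1*, its paralog HIF-2alpha, rose from 21.2 ± 0.269 to 195 ± 15.8 and 96.7 ± 12.2 normalized counts (SD, n = 3), and *Egln3*, a prolyl hydroxylase, from 30.5 to 197 and 154. *Myc*, a known activator of *Ldha* and *Hk2*, fell in SAM1 (-0.65) and by little in SAM2 (-0.071, limma adjusted p = 0.0218). Scaling to the library sum moved the SAM2 median of all genes by more than that, from -0.0015 to 0.10. Whether the fall of *Myc* in SAM2 holds in that scaling was not tested. *Arrdc4*, an arrestin related to *Txnip* that lowers glucose uptake, fell in both lines (-1.06 and -1.38). Over both lines 2 of 13 listed regulators rose and 3 fell (26.8% and 27.0% of all genes).

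The hypoxia response list, from which glycolysis genes were left out, had 21 of 22 genes listed, with 5 higher and 6 lower over both lines, about the 26.8% and 27.0% of all genes, and a median of -0.11. *Adm* (adrenomedullin) fell from 1708 to 389 and 419, *Stc2* (stanniocalcin 2) from 2697 to 303 and 831, and *Vegfa* by 0.34 and 0.09 on the log2 scale. The *Vegfa* value in SAM2 is smaller than the move of the median of all genes with scaling to the library sum (-0.0015 to 0.10). Whether it holds in that scaling was not tested. *P4ha2* and *Rora* rose, by 0.70 and 0.95 and by 0.61 and 0.74. *Ero1a*, the oxidase of the endoplasmic reticulum, moved as *Hk2* did, falling in SAM1 (-0.49) and rising in SAM2 (1.05). *Stc2*, *Vegfa*, *Ero1a*, *Hif1a*, *Myc*, *Tigar* and *Pfkfb2* were named after their values were seen.

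*Gapdh* was compared with 16 other genes that serve as references. Of these 2 rose over both lines (*Polr2a* and *Ywhaz*) and 8 fell, against 26.8% and 27.0% of all genes, with a median log2 fold change of -0.22. *B2m* fell by 0.75 in SAM1 and 0.73 in SAM2, *Rplp0* by 0.49 and 0.39, and *Polr2a*, the largest subunit of RNA polymerase II, rose by 1.07 and 1.26. Only *Polr2a* had a larger fold change than *Gapdh* upwards in either line. *Actb* rose in SAM1 (0.10, limma adjusted p = 0.027) and fell in SAM2 (-0.36, limma adjusted p = 1.37e-06). *Tbp* and *Rps18* passed no threshold against empty vector in either line, with values between -0.053 and 0.092. *Actb*, *Tbp*, *Rps18* and *Ywhaz* were named after their values were seen.

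**Figure D5:**
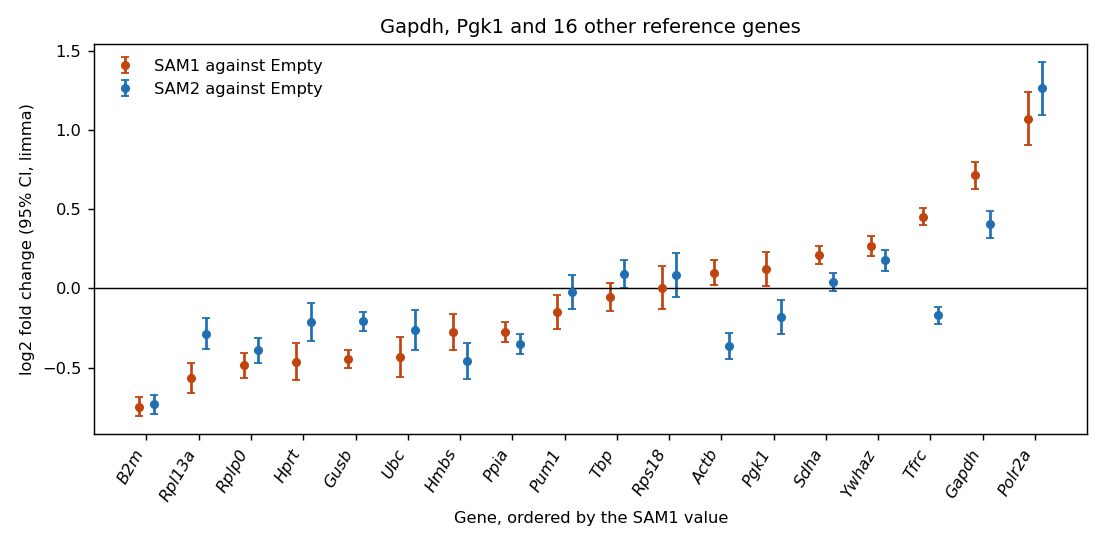
Log2 fold change against empty vector, with 95% confidence intervals from limma, of Gapdh, Pgk1 and 16 other reference genes, ordered by the value in SAM1 (orange), with SAM2 in blue. Gapdh stands at 0.71 and 0.40, B2m at -0.75 and -0.73 and Polr2a at 1.07 and 1.26.

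A ratio to a reference moves with the reference. *Hnrnpk* over *Gapdh* was 3.58, 4.14 and 3.93 in empty vector, 2.20, 2.28 and 2.10 in SAM1, and 2.99, 3.00 and 3.07 in SAM2. All 6 libraries labelled Hnrnpk_SAM lay below empty vector, with a mean log2 difference of -0.59. *Hnrnpk* over *Actb* had means of 0.239 ± 0.0127, 0.207 ± 0.007 and 0.317 ± 0.0109 (SD, n = 3 each), with a log2 difference of 0.10 over both lines. *Actb* over *Gapdh* fell from 16.2 ± 1.31 to 10.6 ± 0.695 and 9.53 ± 0.464 (SD, n = 3 each), a log2 difference of -0.69. Relative to *Gapdh*, the log2 fold change of *Hnrnpk* over both lines moved from -0.032 to -0.59, which is the rise of *Gapdh* by 0.56 subtracted. The ratios are given as a description, since the 6 libraries come from 2 lines that differ.

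*Gapdh*, *Tpi1* and *Hk2* all lie on chromosome 6, whose other 738 matched genes had median log2 fold changes of 0.13 in SAM1 and 0.24 in SAM2. Medians differed between chromosomes, from -0.27 (chromosome 7, with *Aldoa* and *Ldha*) to 0.53 (chromosome 14) in SAM1 and from -0.24 to 0.57 in SAM2, and their part in the members' values was not tested. Among the 20 listed genes nearest to *Gapdh*, the median was 0.29 in SAM1 and 0.24 in SAM2, and 4 and 8 of them had a higher value than *Gapdh*. The nearest were *Nop2* (0.14 and 0.23), *Iffo1* (0.57 and 0.74), *Ncapd2* (1.59 and 1.44) and *Mrpl51* (0.22 and 0.096). Around *Pfkp*, the 20 nearest had medians of -0.060 and -0.33, and 3 and 2 of them exceeded it. Around *Slc2a1*, with medians of -0.19 and -0.17, 11 and 17 of 20 lay above it, and around *Tpi1*, with 0.071 and 0.20, 5 and 7 of 20 did.

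The genes with values most like those of *Gapdh* were sought among 7591 other genes with a mean of at least 1000, by the root mean square difference of their log2 values, relative to the empty vector mean, over the 6 libraries labelled Hnrnpk_SAM. The nearest were *Gstm1* (0.037), *Trip13* (0.044), *Fblim1* (0.046), *Ddr1* (0.048) and *Chp1* (0.050). Their log2 fold changes were 0.68 to 0.74 in SAM1 and 0.38 to 0.46 in SAM2, which is what the search selected. None of them is a glycolysis gene.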

How the data were processed

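PolyA+ RNA of MEFs was measured in 9 libraries, grouped by their labels. Per the labels and the study's methods, the authors checked reads with FastQC (0.11.0), aligned them to GRCm39 with TopHat2, Bowtie2 and SAMtools, counted them per Gencode gene with HTSeq and divided the counts by DESeq2 size factors. The deposited values are thus a signal, normalized counts rather than raw ones. The authors kept genes above 10 in at least 30% of samples, which all 15184 genes met when tested.

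The main test was limma (3.58.1, with a trend, R 4.3.3) on log2(value + 1), once with 6 libraries labelled Hnrnpk_SAM against 3 empty vector libraries, as in the study's comparison, and once with 3 groups, with Benjamini-Hochberg adjustment over all genes. The pseudocount understates fold changes of genes with low values. Values were whole multiples of 1 read (within 0.1 read, for 100% of values) in 8 libraries, from which reads were recovered for edgeR (4.0.16) and DESeq2 (1.42.0) as alternatives. SAM2 replicate 1 was not recovered, as its step lay close to 1, and those fits leave it out. Other alternatives were pseudocounts of 0.5 and 10, only genes above 10 in every library, quantile normalization, scalings, a replicate block, no trend, the mean of the lines and leaving out each library. The limma step was run on simulated counts with 200 changed genes. Those were given the same change in both lines and 1 spread setting for all genes. The simulation therefore does not cover lines that differ, as they do here.

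Gene positions and lengths came from GENCODE vM39 on GRCm39, in which 14791 genes matched 1 time by name. Promoters came from RefSeq. The members and gene lists were chosen with earlier results of these data known. Beyond members and listed isozymes, the genes named were, from each list, the 3 with the smallest adjusted p among those past the threshold over both lines, the 5 nearest to *Gapdh* in pattern, and the nearest neighbours. Others named were chosen after their values were seen. Figures were drawn with matplotlib (3.10.9). The authors' proteomic data and individual reads were not analysed here.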

Additional observations from a re-analysis of the deposited data

Results flagged for a closer look

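All 10 members differed between the lines by limma's test of SAM2 against SAM1, and each was picked out for that reason. The SAM2 minus SAM1 log2 differences were 0.84 for *Hk2* and, in falling order of size, -0.53 for *Pfkp*, -0.45 for *Eno1*, -0.45 for *Aldoa*, -0.44 for *Ldha*, -0.31 for *Gapdh*, -0.30 for *Pgk1*, -0.29 for *Tpi1*, -0.22 for *Pkm* and -0.12 for *Slc2a1*. Of all genes, 31.1% were called higher and 29.2% lower in this test. Groups of 3 libraries are too small for the test of single libraries that stand apart, so only the 6 libraries labelled Hnrnpk_SAM were examined together, and 0 of the 10 members showed one. Because the lines differed at all 10 members, the difference between lines widened the spread in this test. It could therefore hardly find a single library that stands apart, and nothing is concluded from it.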

How the results depend on the processing

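Other settings were run on the members in every comparison. For listed isozymes, the genes named from each list by smallest adjusted p, and *Hnrnpk*, they were run on the value over both lines only. Counting each of these log2 fold changes once per setting, 1561 kept their direction and their side of the threshold. Of the rest, 53 fell short of it, 25 newly passed it and 46 turned. Values of genes other than the members in single lines were not varied, nor were those of genes named otherwise. *Gapdh*, *Pfkp* and *Slc2a1* held against empty vector, in each line and over both, in every setting run for them. Where a call was lost or a direction turned, the cause was not tested, beyond what follows from a scaling to a gene that itself rose.

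Relative to *Gapdh*, these log2 values over both lines turned, to -0.44 for *Hk2*, -0.17 for *Tpi1*, -0.47 for *Eno1*, -0.11 for *Hk1*, -0.48 for *Gpi1*, -0.47 for *Pfkl*, -0.070 for *Pfkm*, -0.068 for *Eno2*, -0.40 for *Ldhb*, -0.18 for *Pfkfb1*, -0.0086 for *Slc16a3*, -0.085 for *Pdhx*, -0.19 for *Pdp2* and -0.071 for *G6pdx*. In SAM1 they turned for *Aldoa* (-0.69), *Tpi1* (-0.18), *Pgk1* (-0.59) and *Eno1* (-0.40), in SAM2 for *Tpi1* (-0.16), and between the lines for *Slc2a1* (0.19), *Tpi1* (0.016), *Pgk1* (0.0052) and *Pkm* (0.094). In this scaling 1 member was higher and 6 lower over both lines, 1 higher and 8 lower in SAM1, 2 higher in SAM2, and 2 higher and 2 lower between the lines.

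Quantile normalization turned *Pkm* over both lines (0.20), in SAM1 (0.26) and in SAM2 (0.14), *Ldha* in SAM1 (0.088), and over both lines *Pgk1* (0.10), *Pgam1* (0.11) and *Hnrnpk* (0.16). It called 1 member lower over both lines, 8 higher and 2 lower in SAM1, and 3 lower in SAM2. Relative to the reference genes, *Pgk1* (0.084), *Pgam1* (0.042) and *Hnrnpk* (0.080) turned over both lines and *Pkm* (0.014) in SAM1. Scaled to the library sum, *Pgk1* (0.095), *Pgam1* (0.053) and *Hnrnpk* (0.091) turned over both lines, and *Pkm* (0.045) and *Ldha* (0.023) in SAM1. Either scaling called 1 member lower over both lines and 2 in SAM1.

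The mean of the lines called 5 members higher and 4 lower over both lines, in a fit that called 11323 of all genes instead of 8179, and edgeR called 1 member lower. *Pgk1* over both lines was 0.0080 with edgeR and 0.0078 with DESeq2. With 1 library left out at a time, members called lower over both lines ranged from 1 to 3 and those in SAM1 from 2 to 4, *Aldoa* in SAM1 from -0.0049 to 0.049 and *Pgk1* over both lines from -0.085 to 0.028.

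The libraries share replicate numbers. Deviations of same-numbered libraries correlated at 0.0024 to 0.12 (mean 0.053), and those of differently numbered ones at -0.12 to 0.046 (mean -0.027). Replicate 2 was the highest library of each group for *Slc2a1*, *Aldoa*, *Tpi1*, *Pgk1*, *Pkm* and *Ldha*, but not for the other members. The labels do not say whether the numbers mark a pairing, and these values do not settle it. A fit with the replicate number as a block called 1 member lower over both lines instead of 2, *Pkm* passing to an adjusted p of 0.0759 (limma), and 7343 genes instead of 8179. In each line by itself the block called more genes, 11631 instead of 11275 in SAM1 and 11095 instead of 10699 in SAM2.

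The window of 200 bases before the start left the number of members with each motif the same, and 4 of the 5 genes nearest to *Gapdh* remained with a minimum mean of 100.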
